A study of Homo sapiens with 6 samples.

Results

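The genes described here encode the proteins of the cytosolic ribosome. They were taken from the deposited count table by symbol, as the RPL and RPS genes with a plain number or a number followed by A or X, together with RPLP0, RPLP1, RPLP2 and RPSA. This gave 77 of the 27234 genes in the table, 46 of the large (60S) and 31 of the small (40S) subunit. The rule itself uses symbols and no measured value, but the set was chosen with earlier results of these data known. The row named RPL21 lies on chromosome 10 (120354661 to 120355223, minus strand), while the annotated start of that gene lies on chromosome 13. Whether its counts come from the gene or from a copy elsewhere was not tested. They are kept in all sums and medians. RNA came from A673, a human Ewing sarcoma cell line that carries the EWS-FLI1 fusion gene and was grown in DME medium with fetal bovine serum. One group was transfected with siRNA against FLI1 (siFLI1, 3 libraries) and the other with a scrambled siRNA (siControl, 3 libraries), and cells were harvested after 48 h. All 6 libraries thus carry the same fusion and come from 1 line, and the comparison asks whether transcripts of ribosomal proteins differ when FLI1, the ETS factor whose DNA-binding part sits in the fusion, is targeted.

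Each ribosome is built from ribosomal RNAs and one copy of most ribosomal proteins, apart from the acidic stalk proteins, which are present in several copies. The large subunit holds the peptidyl transferase centre and the exit tunnel, and the small subunit holds the decoding site. Most ribosomal protein mRNAs begin with a C followed by a run of pyrimidines, the 5' terminal oligopyrimidine (TOP) tract, through which their translation is tied to the kinase mTORC1 and the RNA-binding protein LARP1. Their number per cell is high in growing tumour cells.

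Reads came from the 3' ends of mRNAs. Totals of counts on genes ranged from 417145 in siFLI1 replicate 3 to 1893606 in siFLI1 replicate 1. A pair of libraries stood apart from the rest of their group. In siFLI1 replicate 3 only 10.1% of the header total was assigned to genes, against 41.2% to 61.0% in the others, and siControl replicate 1 had a scaling factor of 1.23 where the other 5 ranged from 0.936 to 0.987. Levels are given as counts-per-million (CPM) after scaling by trimmed mean of M values (TMM). Such levels are relative to the other RNA of a library, so fewer cells of a type and less RNA per cell cannot be told apart. Reads of 3' ends on the FLI1 row cannot tell the fusion transcript from FLI1 outside the fusion. The row was at 19.0, 42.5 and 24.1 CPM in replicates 1, 2 and 3 of siFLI1 and at 63.0, 69.1 and 62.4 CPM in those of siControl (log2 fold change −1.16 ± 0.36, SE; edgeR adjusted p = 0.17). The groups did not overlap, but FLI1 did not pass the threshold of 0.05. Of 10 Ewing sarcoma markers 9 could be tested, and these 9 had log2 fold changes below 0, against 49.6% of all tested genes. The list holds FLI1 itself, so FLI1 enters both this count and the sum that follows. The summed CPM of all 10 ran from 1183 to 1944 across siFLI1 and from 2757 to 3966 across siControl libraries. CCND1 entered that sum with 1256 CPM in siFLI1 replicate 1 and 1220 CPM in siControl replicate 1, so its own groups overlapped. NR0B1 (−1.43 ± 0.30, adjusted p = 0.025) and PRKCB (−1.17 ± 0.26, adjusted p = 0.0369) were the markers called lower, as were 0.117% of all tested genes. Both marker calls were lost in each of the 6 fits without 1 library (adjusted p up to 0.1038 for NR0B1 and 0.1901 for PRKCB). Markers of blood, epithelial, endothelial, muscle, liver and neural cells summed to between 293 and 307 CPM (siFLI1) and between 208 and 268 CPM (siControl). Only KRT18 and CD68 among these 13 passed the low-count filter, and CD3E, MYOD1, MYOG and GFAP had 0 counts in each library. Among the rest, PTPRC reached 42.8 CPM in siFLI1 replicate 3 (16 counts) and 5.13 CPM in siControl replicate 3, with 0 elsewhere. ALB reached 13.4 CPM in siFLI1 replicate 3 (5 counts) with 0 counts in siControl, and EPCAM 7.69 CPM in siControl replicate 3 (9 counts). The source of these reads was not tested.

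Of the 75 ribosomal protein genes that could be tested, 0 passed the threshold in either direction (edgeR's quasi-likelihood F with p adjusted by Benjamini-Hochberg over 9420 genes, threshold 0.05). Across all tested genes 1.45% passed, 1.34% as higher and 0.117% as lower in siFLI1. The smallest adjusted p of a member was 0.234, for RPLP0. DESeq2 and limma-voom also called 0 members. At an unadjusted p below 0.05 in edgeR, 4 members were lower and 0 higher, which is 5.33% of the members for lower values, against 4.13% of all tested genes lower and 6.62% higher. Most estimates were nonetheless slightly negative. In all, 63 of 75 members (84%) had a log2 fold change below 0, against 49.6% of tested genes, and the median was −0.20 where that of all genes was 0.01. The large subunit (45 tested, median −0.20, range −0.75 to 0.57) and the small subunit (30 tested, median −0.20, range −0.55 to 0.39) had the same median to 2 decimals, and without RPL8 the median of the remaining 74 members was −0.20 as well. Members share libraries and scaling, so their signs are not independent.

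Standard errors of the members had a median of 0.29 on the log2 scale, against 0.42 for all tested genes. The 95% interval of 48 of the 75 members (64%) lay wholly within a 2-fold change in either direction, against 26% of tested genes. These intervals are for each gene alone, without adjustment. The plot of estimates by subunit shows both groups of genes shifted to the left of 0 by less than their own intervals.

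**Figure D1:**
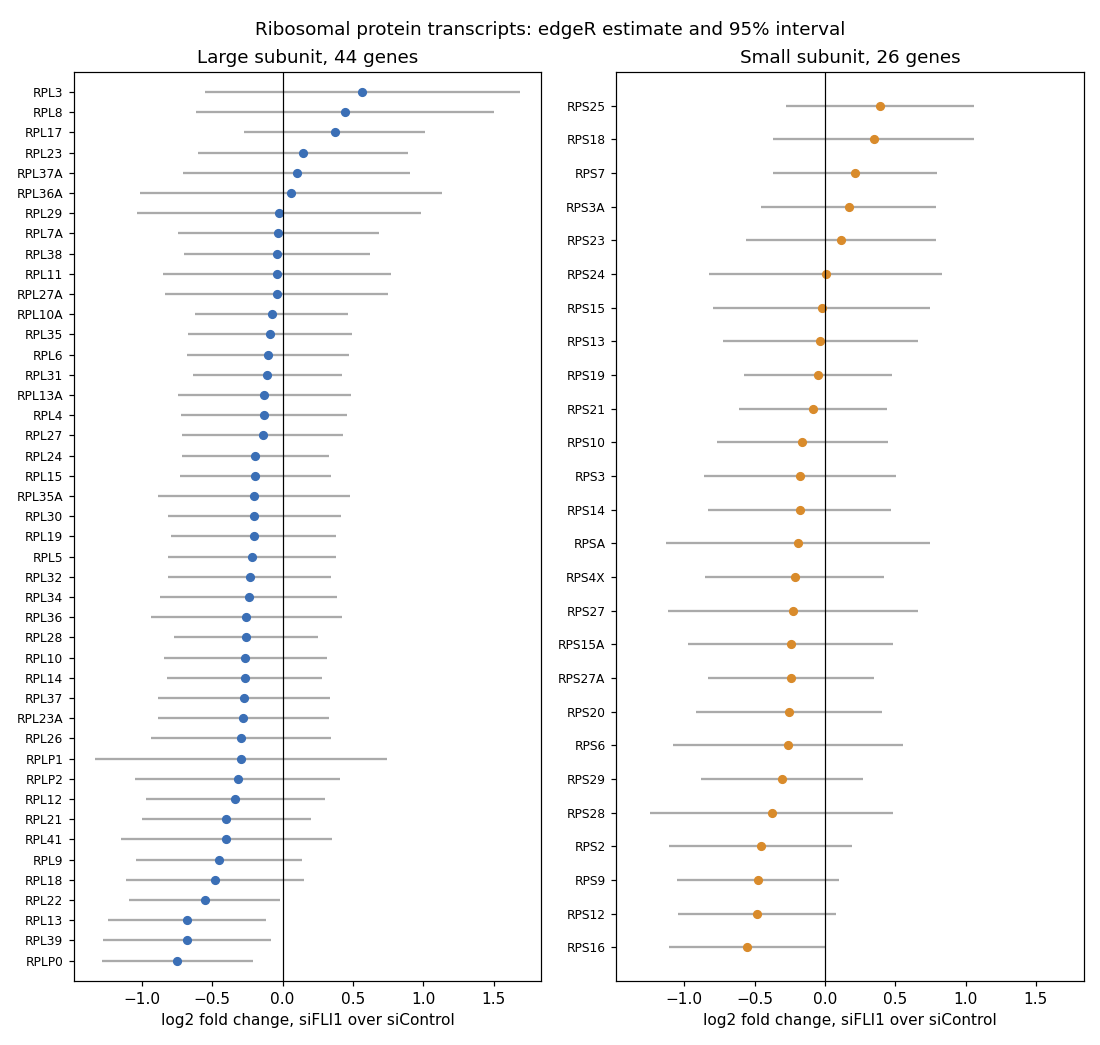
Log2 fold change of siFLI1 over siControl (x axis) for 44 large-subunit genes (blue) and 26 small-subunit genes (orange) of those tested, with grey bars for the 95% interval of each gene. Among these only RPLP0, RPL39, RPL13 and RPL22 have intervals that end below 0, and no interval begins above 0.

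Groups whose libraries did not overlap were counted separately. In 10 members the highest siFLI1 library was lower than the lowest siControl library (13.3%, against 7.71% of tested genes), and the reverse held in 0 members (against 8.93%). The 10 were RPLP0, RPL39, RPL13, RPL22, RPL9, RPL41, RPL10, RPL28, RPS16 and RPS27A.

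The share of a library taken by these genes is scaled by its total count alone. Under total counts the median log2 fold change of all tested genes was itself −0.12, and that of the members −0.31. All 77 members together took 7.90%, 8.07% and 10.9% in siFLI1 replicates 1, 2 and 3, and 7.87%, 8.83% and 10.4% in siControl replicates 1, 2 and 3, or 8.95 ± 1.67% in siFLI1 and 9.03 ± 1.26% in siControl (SD, n = 3). These ranges overlap, and the means differ by less than either SD. A single gene, RPL8, accounts for much of the total, with 3.11%, 3.68% and 6.94% in siFLI1 replicates 1, 2 and 3, and 3.23%, 3.35% and 4.41% in siControl replicates 1, 2 and 3. Without RPL8 the other 76 members took 4.80%, 4.40% and 3.94% in siFLI1 replicates 1, 2 and 3, and 4.64%, 5.48% and 5.97% in siControl replicates 1, 2 and 3, a mean of 4.38 ± 0.426% in siFLI1 and 5.36 ± 0.672% in siControl. Leaving out RPL8 thus moved the difference between the group means from −0.0748 to −0.982 percentage points, with siControl replicate 1 still inside the siFLI1 range.

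Split by subunit, the small-subunit genes took 1.63%, 1.45% and 1.35% in siFLI1 replicates 1, 2 and 3, and 1.68%, 1.88% and 2.01% in siControl replicates 1, 2 and 3. Here the groups did not overlap, siFLI1 being lower, although the gap between siFLI1 replicate 1 and siControl replicate 1 was small. This separation holds for shares of the total count and not after TMM scaling. As log2(CPM + 1) relative to the siControl mean, the median small-subunit gene was at −0.09, −0.10 and −0.24 in siFLI1 replicates 1, 2 and 3. In siControl replicates 1, 2 and 3 it was at −0.34, 0.11 and 0.15, so siControl replicate 1 lay below each siFLI1 library. Large-subunit genes without RPL8 took 3.16%, 2.94% and 2.60% in siFLI1 replicates 1, 2 and 3, and 2.96%, 3.60% and 3.95% in siControl replicates 1, 2 and 3, and siControl replicate 1 lay below siFLI1 replicate 1. The ratio of large-subunit counts without RPL8 to small-subunit counts was 1.94, 2.02 and 1.92 in siFLI1 and 1.77, 1.92 and 1.97 in siControl. The balance between the subunits therefore overlapped between the groups.

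**Figure D2:**
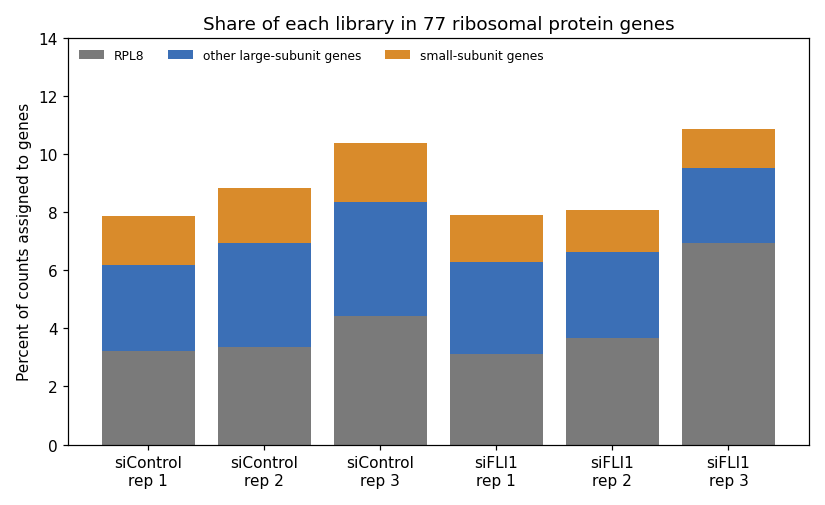
Percent of the counts assigned to genes (y axis) that fell on RPL8 (grey), the other large-subunit genes (blue) and the small-subunit genes (orange) in each of the 6 libraries. RPL8 took 6.94% in siFLI1 replicate 3 and 3.11% to 4.41% in the other 5 libraries, while the coloured parts without RPL8 were smallest in siFLI1 replicate 3, at 3.94% together.

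RPL8 (uL2 in the uniform naming), a large-subunit protein near the peptidyl transferase centre (chromosome 8, 144789765 to 144792389, minus strand, hg38), had more counts than any other row of the table, 309147 over the 6 libraries or 3.67% of all counts. It was at 32879.5, 37728 and 77466 CPM in replicates 1, 2 and 3 of siFLI1 and at 26682, 35154 and 47042 CPM in those of siControl. The siFLI1 libraries 1 and 2 lay within the siControl range, and only siFLI1 replicate 3 lay above it, at 2.19 times the mean of the other siFLI1 libraries. The log2 fold change was 0.44 ± 0.50 (95% interval −0.62 to 1.51; edgeR adjusted p = 0.83), and it was −0.04 without siFLI1 replicate 3 (adjusted p = 0.990). Per kilobase of transcript RPL8 was at 44563 CPM averaged over the 6 libraries, against 7006 CPM per kb for the next member, RPL37A. Because the libraries read 3' ends, per-kilobase values are given only to set genes side by side. Removing the RPL8 row before scaling left the median of the other members at −0.20 and 0 members called.

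The stalk proteins recruit elongation factors to the ribosome. RPLP0 (uL10), the base of the stalk (chromosome 12, 120196700 to 120201211, minus strand), had the lowest estimate of all members. It was at 329, 335 and 335 CPM in replicates 1, 2 and 3 of siFLI1 and at 604, 461 and 613 CPM in those of siControl. The 3 siFLI1 libraries lay close together and lower than any siControl library, with means of 333 ± 3.68 CPM for siFLI1 and 559 ± 84.9 CPM for siControl (SD, n = 3). The log2 fold change was −0.75 ± 0.25 (95% interval −1.29 to −0.21), with an edgeR unadjusted p of 0.00995 and an adjusted p of 0.234. Over the 6 fits without 1 library it ran from −0.87 to −0.68. RPLP1, which forms pairs with RPLP2 on that base (chromosome 15, 69452820 to 69455545), was at 4183, 1899 and 1108 CPM in siFLI1 against 1548, 2819 and 4488 CPM in siControl for replicates 1 to 3 in turn. Its spread within each group was larger than the difference between them (−0.30 ± 0.48, adjusted p = 0.886), and the sign turned without siFLI1 replicate 3 (0.04) or siControl replicate 3 (0.13). RPLP2 (chromosome 11, 809936 to 812876) was at 2468, 2165 and 1751 CPM in siFLI1 against 1737, 2706 and 3532 CPM in siControl, again with overlap (−0.32 ± 0.34, adjusted p = 0.821).

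Among the other large-subunit genes the lowest estimates were those of RPL39, RPL13 and RPL22. RPL39 (eL39), a small protein that lines the exit tunnel (chromosome X, 119786504 to 119791659), was at 132, 121 and 72.3 CPM in siFLI1 against 189, 145 and 201 CPM in siControl (log2 fold change −0.68 ± 0.28; edgeR unadjusted p = 0.0284, adjusted p = 0.389). RPL13 (chromosome 16, 89560657 to 89566829) was at 180.0, 214 and 158 CPM in siFLI1 against 372, 235 and 284 CPM in siControl (−0.68 ± 0.26; unadjusted p = 0.021, adjusted p = 0.334). RPL22, an RNA-binding protein that mammalian cells can grow without (chromosome 1, 6185020 to 6199619), was at 142, 126 and 107 CPM in siFLI1 against 172, 168 and 216 CPM in siControl (−0.55 ± 0.25; unadjusted p = 0.0434, adjusted p = 0.441). In these 3 genes the groups did not overlap, and siFLI1 replicate 3 was the lowest library. Over the 6 fits without 1 library the estimates ran from −0.84 to −0.49 for RPL39, from −0.82 to −0.52 for RPL13 and from −0.66 to −0.43 for RPL22, and 0 of them passed. Next came RPL18 at −0.48 ± 0.30 and RPL9 at −0.45 ± 0.28 on the log2 scale (adjusted p = 0.621 and 0.62). RPL18 was at 487, 295 and 259.7 CPM in siFLI1 against 560.1, 381 and 525 CPM in siControl, so that siFLI1 replicate 1 lay inside the siControl range.

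At the other end, RPL3 (uL3), which reaches into the peptidyl transferase centre (chromosome 22, 39312882 to 39319665), had the highest estimate at 0.57 ± 0.52 (adjusted p = 0.781). It rested on 125 counts over 6 libraries, the fewest of any tested member, and was at 19.0, 10.6 and 34.8 CPM in siFLI1 against 12.9, 11.1 and 16.2 CPM in siControl. RPL17, a protein at the rim of the exit tunnel (chromosome 18, 49488481 to 49492565), was at 179, 152 and 270.4 CPM in siFLI1 against 103, 179 and 178 CPM in siControl (0.37 ± 0.30, adjusted p = 0.739). Its row overlaps the read-through gene RPL17-C18orf32 on the same strand, which had 1951 counts against 1355 for RPL17, so reads of the pair could be shared. RPL23 (0.14 ± 0.35), RPL37A (0.10 ± 0.38) and RPL36A (0.06 ± 0.50) completed the 6 highest with RPL8, with adjusted p of 0.926, 0.953 and 0.981. RPL36A overlaps the read-through gene RPL36A-HNRNPH2 on the same strand, which had 638 counts against 130. The siFLI1 maximum was replicate 3 in RPL3, RPL8, RPL17, RPL23 and RPL37A, and replicate 1 in RPL36A.

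In the small subunit the lowest estimate was that of RPS16. RPS16 (uS9), whose tail reaches the decoding region (chromosome 19, 39433137 to 39436020), was at 633, 603 and 578 CPM in replicates 1, 2 and 3 of siFLI1 and at 981, 784 and 896 CPM in those of siControl. The groups did not overlap, with 605 ± 27.6 CPM for siFLI1 and 887 ± 98.8 CPM for siControl (SD, n = 3), a log2 fold change of −0.55 ± 0.26 (95% interval −1.11 to 0.00), an edgeR unadjusted p of 0.0511 and an adjusted p of 0.469. RPS12 (chromosome 6, 132814569 to 132817564) was at 304, 309.6 and 345 CPM in siFLI1 against 338, 457 and 544 CPM in siControl (−0.48 ± 0.26, adjusted p = 0.559). It had the smallest adjusted p of any member in any alternative fit, 0.109 without siFLI1 replicate 3 and siControl replicate 1. RPS9 and RPS2, the latter a protein at the mRNA entry site, were at −0.48 ± 0.27 and −0.46 ± 0.30, with overlapping groups.

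RPS25 (eS25), needed for initiation at several viral internal ribosome entry sites (chromosome 11, 119015713 to 119018347), had the highest small-subunit estimate. It was at 183, 261 and 409.7 CPM in siFLI1 against 169.6, 273 and 197 CPM in siControl (0.39 ± 0.31, adjusted p = 0.73), and only siFLI1 replicate 3 lay above the siControl range. Its row overlaps CCDC84 on the opposite strand, which had 417 counts against 1886. RPS18, a protein of the head of the subunit (chromosome 6, 33272075 to 33276504), was at 95.6, 79.1 and 163 CPM in siFLI1 against 57.6, 107 and 93.2 CPM in siControl (0.35 ± 0.33, adjusted p = 0.792), with the same library on top. RPS7 (0.21 ± 0.27), RPS3A (0.17 ± 0.29), RPS23 (0.12 ± 0.32) and RPS24 (0.01 ± 0.39) followed. RPS27A, made as a fusion with ubiquitin, was at 1306, 1249 and 1216 CPM in siFLI1 against 1366, 1463 and 1638 CPM in siControl, which did not overlap although the difference was small (−0.24 ± 0.28, adjusted p = 0.833). RPSA, also known as the laminin receptor, was at 14.5, 17.9 and 16.1 CPM in siFLI1 against 16.7, 19.9 and 18.8 CPM in siControl from 146 counts in all (−0.19 ± 0.44, 95% interval −1.13 to 0.75, adjusted p = 0.924), and its groups overlapped by siFLI1 replicate 2 alone. RPS6, the substrate of S6 kinase, was at 1322, 1394 and 752 CPM in siFLI1 against 686, 1881 and 1606 CPM in siControl (−0.26 ± 0.38, adjusted p = 0.87), where siFLI1 replicate 3 and siControl replicate 1 were the low libraries.

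Within siControl, replicate 1 was low for most members. Relative to the siControl mean of each gene, on the scale log2(CPM + 1), the median member stood at −0.10, −0.23 and −0.19 in siFLI1 replicates 1, 2 and 3, and at −0.35, 0.07 and 0.23 in siControl replicates 1, 2 and 3. The siFLI1 libraries lay together, between siControl replicate 1 and the other siControl libraries. In 54 of 75 members (72%) siControl replicate 1 was the lowest control, against 66.7% of the mitochondrial ribosomal protein genes, 53.9% of the 608 other tested genes with a transcript under 1000 bases and 35.1% of all tested genes. It was below 60% of the mean of the other controls in 22 members (29.3%), against 16.6% of all tested genes and 25.8% of those other short genes and 23.1% of the mitochondrial ribosomal protein genes. Lowest were RPS28 at 0.298, RPS24 at 0.314, RPS15 at 0.345, RPL11 at 0.345, RPL27A at 0.373 and RPL37A at 0.385 times the mean of the other controls. RPL11, which with RPL5 carries 5S rRNA and can bind MDM2, was at 984, 1387 and 1082 CPM in siFLI1 against 523, 1707 and 1323 CPM in siControl. RPS24 was at 1447, 1190.5 and 1344 CPM in siFLI1 against 539, 1748 and 1680.3 CPM in siControl. Members with low fold changes differed in this ratio: RPL39 stood at 1.09, RPLP0 at 1.12, RPS16 at 1.17, RPL13 at 1.43 and RPS9 at 1.52, but RPL22 at 0.894, RPS12 at 0.674 and RPS2 at 0.634. Because siControl replicate 1 enters both the ratio and the fold change, they are not independent.

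Leaving out siControl replicate 1 moved the median of the members to −0.39 (large subunit −0.40, small subunit −0.37) while that of all genes was 0.00. In that fit 67 of 75 members were below 0, 11 were lower at an unadjusted p below 0.05 (4.14% of all genes were) and 0 passed (smallest adjusted p = 0.219). Without siControl replicate 3 the median was −0.09, with 51 members below 0. Without both siFLI1 replicate 3 and siControl replicate 1 the median was −0.30, 72 members were below 0 and 16 were lower at an unadjusted p below 0.05, where 5.88% of all genes tested were, and 0 passed (smallest adjusted p = 0.109). The size of the shift thus depended on which controls were kept. Its sign did not in any of the fits run, but none of these had siControl replicate 1 as the only control. On the log2(CPM + 1) scale above, the median member was lower in that library (−0.35) than in siFLI1 replicates 1, 2 and 3 (−0.10, −0.23 and −0.19).

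**Figure D3:**
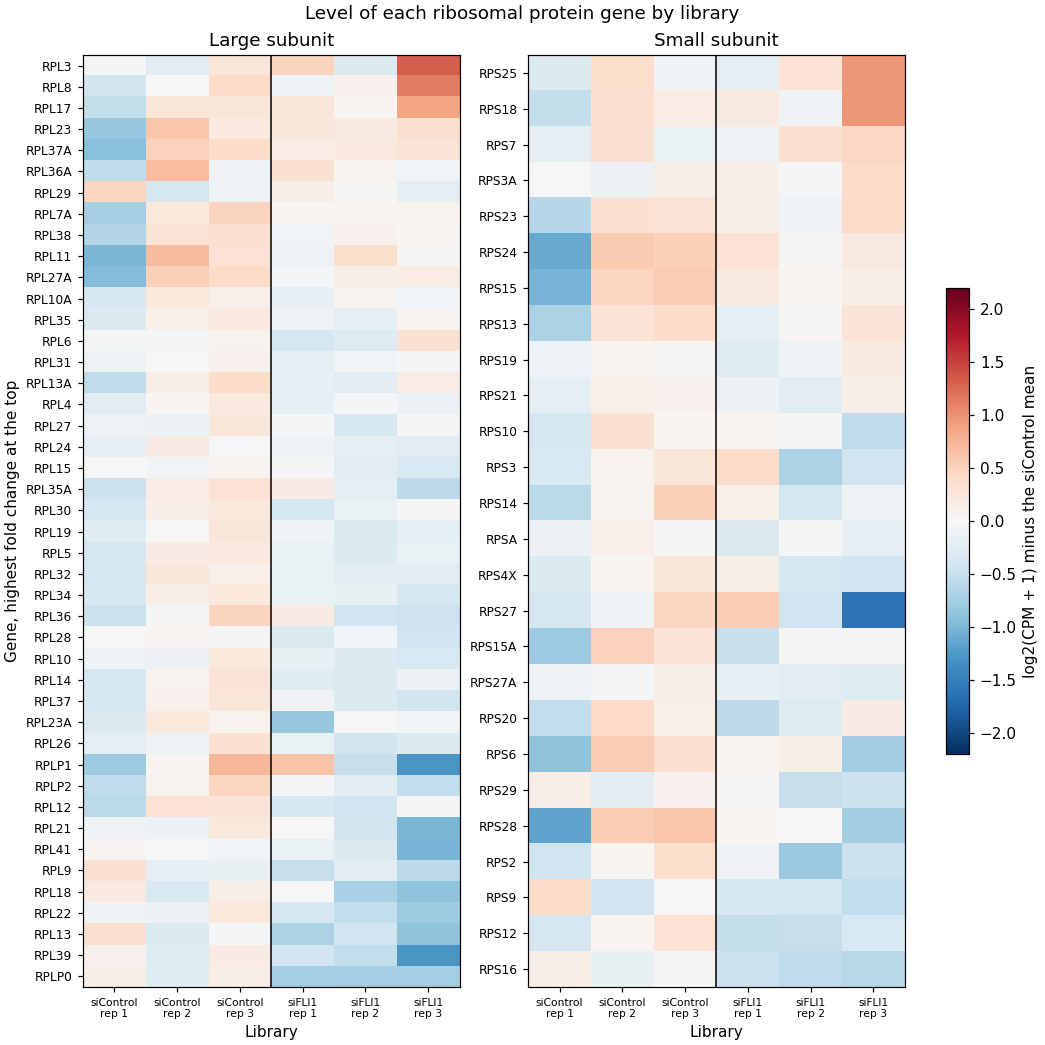
Level of 70 tested members in each library (columns), as log2(CPM + 1) minus the mean of the 3 siControl libraries, on a scale from blue (lower) to red (higher), with genes ordered by fold change within each subunit. The siControl replicate 1 column is blue for most genes (median −0.35 over all 75), and in siFLI1 replicate 3 RPL3, RPL8 and RPL17 are red while RPLP1, RPL39 and RPS27 are blue.

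The starts of these genes show the tract that the class is known for, and because ETS factors bind the bases GGAA the same windows were searched for a longer ETS-type motif. RefSeq promoter windows (GRCh38.p14, 250 bases before to 50 after each annotated start) were found for 62 of the 77 members, in 77 windows. The other 15 had no entry. For RPL21 the window lies on chromosome 13 and the counted row on chromosome 10, so its motifs and fold change belong to different places. The sequences listed here hold the 40 bases before the annotated start and the 25 bases from it on, and capitals mark a C followed by at least 4 bases that are C or T, starting at the C nearest to the annotated start. Shown are the 6 lowest and the 4 highest fold changes among the tested members with a window, so that the tract can be compared between both ends of the distribution.
RPLP0 (chr12:120201087-120201151, minus strand): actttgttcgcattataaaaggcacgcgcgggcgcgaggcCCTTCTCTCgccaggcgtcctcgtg
RPL39 (chrX:119791606-119791670, minus strand): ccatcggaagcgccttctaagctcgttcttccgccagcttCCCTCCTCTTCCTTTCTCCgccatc
RPL13 (chr16:89560642-89560706, plus strand): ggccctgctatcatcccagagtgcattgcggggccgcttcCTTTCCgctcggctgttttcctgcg
RPL22 (chr1:6199571-6199635, minus strand): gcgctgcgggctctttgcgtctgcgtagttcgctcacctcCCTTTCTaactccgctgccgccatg
RPS16 (chr19:39435925-39435989, minus strand): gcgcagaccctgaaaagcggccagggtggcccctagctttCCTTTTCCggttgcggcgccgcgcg
RPS12 (chr6:132814529-132814593, plus strand): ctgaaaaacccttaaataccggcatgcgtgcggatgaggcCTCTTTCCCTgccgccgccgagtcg
RPS18 (chr6:33272035-33272099, plus strand): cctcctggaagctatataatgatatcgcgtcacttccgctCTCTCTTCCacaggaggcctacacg
RPL17 (chr18:49492441-49492505, minus strand): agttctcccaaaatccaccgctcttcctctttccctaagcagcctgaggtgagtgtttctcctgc
RPS25 (chr11:119018319-119018383, minus strand): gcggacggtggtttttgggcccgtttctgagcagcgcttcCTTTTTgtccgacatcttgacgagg
RPL3 (chr22:39319599-39319663, minus strand): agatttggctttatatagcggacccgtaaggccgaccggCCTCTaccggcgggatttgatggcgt

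In 8 of these 10 genes the tract begins at the annotated start itself. In RPL3 it begins 1 base earlier and is 5 bases long, and in RPL17 none begins within 10 bases of the start, although a run of pyrimidines, left in lower case, lies further upstream. Such a tract began exactly at an annotated start in 46 of the 62 members (74.2%), 28 of 38 large-subunit and 18 of 24 small-subunit genes, against 5.14% of all 27305 genes with a window. Within 10 bases of a start it was found in 57 members (91.9%) and 38.4% of all genes. The median log2 fold change was −0.20 in the 46 members with the tract at the start and −0.14 in the 15 tested members without it, and the former spanned −0.75 to 0.39.

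The motif CCGGAAG, searched on both strands over the 300 bases, was present in 22 of the 62 members (35.5%) and in 12.2% of all genes. Members with it had a median log2 fold change of −0.17 (range −0.48 to 0.57) and the 39 others one of −0.20 (range −0.75 to 0.37). Of the 10 genes shown, RPL3, RPS25 and RPS18 held these letters, and RPL17 and the 6 with the lowest estimates did not. The neighbours in the order went the other way, since RPL18 (−0.48) held the motif and RPS7 (0.21) did not. Stretches of 35 bases around the motif (in capitals, or its reverse complement CTTCCGG where the motif lies on the other strand) are given for these 3 and for RPL26 and RPLP2.
RPL3 (chr22:39319660-39319694, minus strand): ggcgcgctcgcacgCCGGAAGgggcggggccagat
RPS25 (chr11:119018378-119018412, minus strand): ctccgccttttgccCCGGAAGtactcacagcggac
RPS18 (chr6:33271924-33271958, plus strand): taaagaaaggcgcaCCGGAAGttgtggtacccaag
RPL26 (chr17:8383192-8383226, minus strand): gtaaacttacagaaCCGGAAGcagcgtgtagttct
RPLP2 (chr11:809745-809779, plus strand): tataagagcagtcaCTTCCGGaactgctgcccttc

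A match of letters is not a bound site. AAGATGGC, a YY1-type motif, was found in 6 members (9.68%, against 3.52% of all genes) and TATAAA in 5 (8.06%, against 14%), both searched on both strands. RPLP0 and RPL3, the ends of the distribution, both belong to the 5 with TATAAA. In the stretches shown, RPLP0 holds it on its own strand and RPL3 as the reverse complement.

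Ribosomal protein genes have more processed pseudogenes than most genes, which bears on how reads are assigned. GENCODE 29 names 1133 pseudogenes of the 77 members, from 0 for RPL28 to 91 for RPL23A, with a median of 10. The members missed by the low-count filter were RPL7, with 61 pseudogenes and 13 counts over the 6 libraries, and RPS26, with 30 pseudogenes and 2 counts. RPL7, a protein of the large subunit, had 3, 2 and 1 counts in siFLI1 and 0, 6 and 1 in siControl, and RPS26, one of the genes mutated in Diamond-Blackfan anaemia, had 0 in each siFLI1 library and 1, 0 and 1 in siControl. No fold change is given for either. Over the 77 members the number of pseudogenes and the mean CPM per kilobase had a Spearman correlation of −0.34 (−0.33 for CPM), given as a description, since all points share the same libraries. RPSA, with 74 pseudogenes, was at 14.7 CPM per kb, while RPL7A, with 37, was at 1696 and RPS29, with 32, at 1664 CPM per kb. The 6 members with 1 pseudogene were RPL8 at 44563, RPLP2 at 4924, RPS13 at 1926, RPL27 at 1594, RPS25 at 514.5 and RPS9 at 215 CPM per kb, and RPL28, with 0, was at 64.7. Levels per kilobase thus ranged widely among members with few pseudogenes, but their order depends on the division by length. In CPM alone RPL28 was at 284, above RPS25 at 249 and RPS9 at 190.

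The table also holds 28 rows of ribosomal protein pseudogenes, 25 of them with counts, which took 0.135% to 0.276% of siFLI1 and 0.179% to 0.384% of siControl libraries. RPL13AP5 was at 976, 1030.4 and 458 CPM in siFLI1 against 536, 1319 and 1491 CPM in siControl, above its parent RPL13A at 365, 345 and 463 CPM in siFLI1 against 281, 458 and 542 CPM in siControl in each library except siFLI1 replicate 3. RPS14P3 was at 835, 615 and 337 CPM in siFLI1 against 267, 666 and 1125 CPM in siControl, and RPS14 itself at 477, 339 and 407 CPM in siFLI1 against 290.3, 462 and 636 CPM in siControl. The treatment of reads that match several places is not stated in the sources used, so levels of RPL13A, RPS14 and other members with close copies are uncertain. The part of multiple matches in any of the differences above was not tested.

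**Figure D4:**
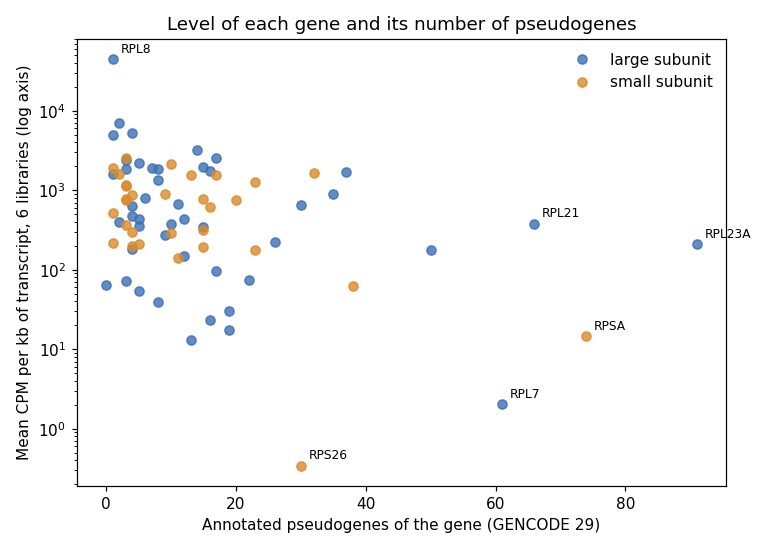
Mean CPM per kilobase of transcript over the 6 libraries (y axis, log scale) against the number of annotated pseudogenes (x axis) for the 77 members, large subunit in blue and small subunit in orange. RPL8 stands at 44563 CPM per kb with 1 pseudogene, and RPL7 and RPS26, at 2.02 and 0.343 CPM per kb, have 61 and 30.

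Ribosomal proteins outside the symbol rule were read as well. FAU encodes a small-subunit protein fused to a ubiquitin-like protein, and RACK1 is a scaffold on the small subunit. FAU was at 881, 1149 and 969 CPM in siFLI1 against 1062, 1157 and 1085 CPM in siControl (log2 fold change −0.14 ± 0.27; edgeR adjusted p = 0.903). RACK1 was at 394, 399.9 and 369 CPM in siFLI1 against 397, 495 and 537 CPM in siControl (−0.29 ± 0.25, adjusted p = 0.754). Neither passed, and the groups overlapped in both. Of 8 paralogues of ribosomal proteins 6 could be tested, and 0 passed, against 1.45% of all tested genes. RPL36AL, which resembles RPL36A, was at 1869.7, 1897 and 2599.9 CPM in siFLI1 against 806, 1704 and 1550.4 CPM in siControl (0.65 ± 0.34, adjusted p = 0.541), and RPS27L, a paralogue of RPS27 known as a p53 target, at 127, 129.5 and 203 CPM in siFLI1 against 87.2, 114 and 100 CPM in siControl (0.58 ± 0.28, adjusted p = 0.475). In both genes the siFLI1 values were wholly higher than those of siControl, a separation seen in 8.93% of all tested genes. RPL22L1 was separated in the opposite direction, as were 7.71% of all tested genes. Its gap was narrow, with a highest siFLI1 value of 84.4 CPM and a lowest siControl value of 84.6 CPM. RPL39L (−0.44 ± 0.45), RPL22L1 (−0.25 ± 0.26), RPL26L1 (−0.10 ± 0.46) and RPL7L1 (0.10 ± 0.32) did not pass either. RPL10L had 0 counts and RPL3L 2.

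Other TOP mRNAs, those of elongation factors, initiation factor subunits and similar proteins, were read from a list of 25, all tested. Here 0 passed in edgeR (1.45% of all tested genes did), 20 were below 0 (80%, against 49.6% of all tested genes) and the median was −0.15. The unadjusted p was below 0.05 in 1 gene of either sign, against 4.13% lower and 6.62% higher among all tested genes. HNRNPA1, a splicing factor, was at 182, 197 and 149.9 CPM in siFLI1 against 268, 281 and 303 CPM in siControl (−0.68 ± 0.24, adjusted p = 0.277). The intermediate filament gene VIM was at 5005, 5743 and 6983 CPM in siFLI1 against 1915, 3206 and 2814 CPM in siControl (1.16 ± 0.35, adjusted p = 0.156), and it passed in DESeq2 (adjusted p = 0.00639) and, in edgeR, when siFLI1 replicate 3 and siControl replicate 1 were left out (0.0223). The poly(A)-binding protein gene PABPC1 was at −0.50 ± 0.27 and the elongation factor EEF2 at −0.36 ± 0.28. Of 13 tested snoRNA host genes, many of which carry TOP tracts, 0 passed (against 1.45% of all tested genes) and the median was −0.09. At an unadjusted p below 0.05, 1 of them was lower, against 4.13% of all tested genes. That gene was SNHG1, at 143, 142 and 171 CPM in siFLI1 against 297, 195 and 221 CPM in siControl (−0.66 ± 0.26, adjusted p = 0.351).

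Genes that act on ribosomal proteins or on TOP mRNAs were read from further lists. Of 18 chaperones and late assembly factors, 0 passed (1.45% of all tested genes did), and the median was 0.08. At an unadjusted p below 0.05 there were 0, against 4.13% lower and 6.62% higher among all tested genes. RIOK1, a kinase of late 40S maturation, was at −0.68 ± 0.32 (adjusted p = 0.476), EIF6, which keeps the subunits apart, at 0.61 ± 0.31 and GRWD1, a chaperone of RPL3, at −0.96 ± 0.57. Of 24 tested members of the mTORC1 and LARP1 pathway, 0 passed in edgeR, where 1.45% of all tested genes did, and the median was 0.10. The edgeR unadjusted p was below 0.05 in 4 with positive and 1 with negative estimates, against 6.62% and 4.13% of all tested genes. EIF4EBP1, the translational repressor that mTORC1 phosphorylates, was at 52.0, 49.2 and 34.8 CPM in replicates 1, 2 and 3 of siFLI1 and at 111, 87.8 and 107 CPM in those of siControl. Its groups did not overlap, with 45.3 ± 9.22 CPM for siFLI1 and 102 ± 12.3 CPM for siControl (SD, n = 3) and a log2 fold change of −1.12 ± 0.28 (edgeR adjusted p = 0.0744). It passed in DESeq2 (adjusted p = 0.0469) and with no low-count filter (0.0325). DDIT4, an inhibitor of mTORC1, was at 122, 109 and 77.6 CPM in siFLI1 against 80.8, 39.2 and 51.3 CPM in siControl (0.87 ± 0.32, adjusted p = 0.298), and it passed without siFLI1 replicate 3 and siControl replicate 1 (0.0291). LAMTOR3, a subunit of the lysosomal anchor of mTORC1, had its lowest siFLI1 library at 38.5 CPM and its highest siControl library at 27.3 CPM, with no overlap (log2 fold change 1.02 ± 0.38, edgeR adjusted p = 0.31). TSC1, part of the complex that restrains mTORC1, was at 12.9, 28.6 and 145 CPM in siFLI1 against 7.54, 2.93 and 23.9 CPM in siControl, where siFLI1 replicate 3 alone made up most of the mean (2.33 ± 0.87, adjusted p = 0.327). TSC1 passed with no low-count filter (adjusted p = 0.000132). LARP1 was at −0.03 ± 0.39 and MTOR at 0.16 ± 0.31.

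Proteins of the mitochondrial ribosome served for comparison. Of 78 tested genes 1 rose and 0 fell (1.28%, against 1.45% of all genes), 49 were below 0 (62.8%) and the median was −0.08, between that of the cytosolic members and that of all genes; the difference between the sets was not tested. The gene that rose was MRPS6, at 238, 253 and 319 CPM in siFLI1 against 91.5, 113 and 119.7 CPM in siControl (log2 fold change 1.31 ± 0.25; edgeR adjusted p = 0.0148), a call lost on leaving out siFLI1 replicate 2 (adjusted p = 0.0904), or siControl replicate 2 (0.0929) or 3 (0.071). MRPL44 (−1.13 ± 0.35), MRPS5 (−0.96 ± 0.32) and MRPS35 (−0.64 ± 0.28) had the smallest p-values among those with negative estimates and did not pass (adjusted p from 0.175 to 0.424).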

How the data were processed

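RNA of 6 samples was read with a MARS-seq derivative that carries molecular barcodes, per the labels' protocols, in 3 siFLI1 and 3 siControl samples. The authors deposited raw counts per gene over exons in 1 table, with 1 RefSeq transcript per gene. Per the submitters' processing notes bcl2fastq, HISAT 0.1.5, HOMER and hg38 were used, with no role given. Whether barcodes were collapsed, strand was used or multiple matches were kept is not stated in the sources used. No label names separate cultures, so each p-value rests on the spread among these samples, and that may be technical. Libraries of 1 group differed beyond counting error (chi-square over its degrees of freedom of at least 6.78).

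Genes were kept by filterByExpr (minimum count 10, total 15), scaled by TMM, and tested with edgeR 4.0.16 in R 4.3.3 (glmQLFit with robust estimation, group as the only term). Standard errors and intervals derive from the quasi-likelihood F. DESeq2 1.42.0, limma-voom (limma 3.58.1), other scalings and filters, the replicate number as a block and fits without libraries were alternatives, and the fit without the RPL8 row was added after seeing the data. Members and lists were chosen with earlier results of these data known, so no test over a list is given. By rule the text names members that pass, RPL8, the stalk proteins and RPSA, the 6 highest and 6 lowest fold changes and the 3 highest levels of each subunit, untested members, the measured paralogues, FAU and RACK1, up to 4 genes with the smallest p of each other list, and FLI1. Others (such as RPL11, RPS6, RPS28, RPL13A, RPS14, EEF2, LARP1 and MTOR) were chosen after their values were seen. A few genes the rule names are not reported here; counts and medians include all members. Promoter windows are from RefSeq and pseudogene names from GENCODE 29.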

Additional observations from a re-analysis of the deposited data

How the results depend on the processing

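In each of the 17 alternative fits 0 members were called higher and 0 lower, and the median log2 fold change of the members stayed negative. It ran from −0.39 to −0.0937 over the fits without 1 library (large subunit −0.40 to −0.0704, small subunit −0.37 to −0.0823), with −0.30 without siFLI1 replicate 3 and siControl replicate 1, −0.31 under total counts and −0.26 with no low-count filter. Total counts moved the median of all genes to −0.12 and the absence of a filter moved it to 0.12, so relative to all genes the members stood at −0.19 and −0.38, against −0.21 in the reported fit. The number of members lower at an unadjusted p below 0.05 was 4, and it was 7 under total counts, 16 without siFLI1 replicate 3 and siControl replicate 1, and 1 to 11 over the fits without 1 library. The difference in the share of counts was −0.0748 percentage points, −0.982 without RPL8 and −1.04 to 0.60 over the fits without 1 library. Replicate numbers are shared by the groups, but same-numbered libraries did not deviate together (correlations −0.023, −0.013 and −0.043); with the replicate block the members' median was −0.20, 3 were lower at an unadjusted p below 0.05 and 101 genes of the whole table were called, against 137.

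Of 1070 values of a named gene under an alternative, 1008 kept their direction and side of the threshold. Signs turned in 34, all in genes that did not pass in either fit. Without siFLI1 replicate 3 and siControl replicate 1 the log2 fold change was −0.23 for RPL8, −0.11 for RPL17, −0.23 for RPL23, −0.27 for RPL37A, −0.16 for RPL36A, −0.10 for RPS25, −0.21 for RPS18, −0.0114 for RPS7, −0.28 for RPS23, −0.39 for RPS24 and −0.36 for RPL7L1. Fits without 1 library gave ranges of −0.04 to 0.67 for RPL8, −0.97 to 0.13 for RPLP1, 0.11 to 0.53 for RPL17, 0.0553 to 0.63 for RPS25, 0.0268 to 0.55 for RPS18, 0.0728 to 0.41 for RPS7, −0.20 to 0.47 for RPL23, −0.27 to 0.33 for RPL37A, −0.23 to 0.51 for RPL36A, −0.17 to 0.28 for RPS23, −0.40 to 0.26 for RPS24, −0.33 to 0.19 for RPL26L1 and −0.21 to 0.48 for RPL7L1. RPL36A was at −0.0257 under total counts. RPS24 was at −0.0047 with DESeq2 size factors and in DESeq2, −0.0478 under total counts, −0.0213 under upper quartile scaling and −0.054 with no low-count filter. The cause of these turns was not tested. At this depth the 95% intervals of genes with few counts stay wide: that of RPL3 (−0.55 to 1.69) holds a 2-fold increase but not a 2-fold decrease, and that of RPSA (−1.13 to 0.75) the reverse.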
